A study of Mus musculus with 31 samples.

Results

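The 9 genes described here encode the enzymes leading from a glycolytic intermediate to stored triglyceride, and their liver expression was read in 4 genotype groups. They were chosen by name (Gpd1, Gpam, Agpat2, Agpat3, Lpin1, Lpin2, Lpin3, Dgat1 and Dgat2). No measured value served as a filter, but earlier results of these data were known when the choice was made. Of 23968 gene names with a usable probe, these were 9. The array carried 22 probes for them, of which 20 passed the filter on dim or missing spots.

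The pathway runs in the order of these names. Glycerol-3-phosphate dehydrogenase, encoded by Gpd1, reduces dihydroxyacetone phosphate from glycolysis to glycerol-3-phosphate, the backbone of triglyceride. Mitochondrial glycerol-3-phosphate acyltransferase (Gpam) adds the first fatty acid, 1-acylglycerol-3-phosphate acyltransferases (Agpat2, Agpat3) add the next and give phosphatidic acid, the lipins remove its phosphate to give diacylglycerol, and the diacylglycerol acyltransferases (Dgat1, Dgat2) add the last fatty acid. In the liver the route handles fatty acids that are made from sugar as well as those taken up from blood.

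The study used male C57BL6/J mice to ask what the short isoform of ChREBP, a glucose-responsive transcription factor encoded by Mlxipl, adds to the full-length protein. ChREBPβ-deficient mice (8) lacked exon 1b of Mlxipl, removed in zygotes with Cas9, and had 8 WT littermates. Total ChREBP-KO mice (7) were Mlxipl-null and lacked the α and β isoforms, and had 8 WT littermates of their own line. Both deletions are carried in every cell, so a liver value does not separate an effect of the liver from one of other organs. All 31 mice ate chow, were fasted for 24 h and were then refed for 18 h with 20% glucose in the drinking water. Their age, and which founder line gave the ChREBPβ-deficient mice, are not given in the sources used here.

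Each probe is a 60-base DNA strand that binds labeled RNA, and its brightness is given below as normalized log2 signal, on which 1 unit is a doubling. A gene's leading probe is the one with the highest mean over all arrays, a ranking used only to choose which of its probes is described first. All differences are between mice on the same probe. Below, 4 probes are printed in their 5′ to 3′ direction, all in lower case, because the results on the lipins and on the 2 ends of the pathway turn on reading the right gene. They are an Lpin1 probe at chr12:16587593-16587652 (mm9, minus strand), an Lpin2 probe at chr17:71580723-71580782 (plus strand), the second Gpd1 probe at chr15:99550555-99550614 (plus strand) and the only Dgat1 probe, whose ends lie at chr15:76333128-76333274 (minus strand), a span longer than the probe itself.
Lpin1 A_55_P2883270: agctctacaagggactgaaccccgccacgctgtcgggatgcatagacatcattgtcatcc
Lpin2 A_55_P2729608: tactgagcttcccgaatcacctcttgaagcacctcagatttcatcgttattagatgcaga
Gpd1 A_66_P137409: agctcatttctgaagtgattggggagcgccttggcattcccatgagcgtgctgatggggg
Dgat1 A_52_P456134: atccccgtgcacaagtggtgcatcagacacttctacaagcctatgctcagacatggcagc

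Over all pairs of probes for different lipins, the longest run of identical bases was 8. The array annotation places the 4 Lpin1 probes used between chr12:16543023-16587652 on the minus strand, and the 5 Lpin2 probes used between chr17:71571729-71599057 on the plus strand.

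RefSeq promoter windows of build GRCm38.p6 were matched for 6 of the 9 genes, 10 windows in all, and not for Gpd1, Dgat1 or Dgat2. The 250 bases before the start are printed for Lpin1 (chr12:16610967-16611216, minus strand) and for the first of 3 starts of Lpin2 (chr17:71183282-71183531, plus strand), because these genes moved in opposite directions in total ChREBP-KO mice. Capitals mark the E-box CACGTG, the core letters bound by many factors of the family that ChREBP belongs to.
Lpin1: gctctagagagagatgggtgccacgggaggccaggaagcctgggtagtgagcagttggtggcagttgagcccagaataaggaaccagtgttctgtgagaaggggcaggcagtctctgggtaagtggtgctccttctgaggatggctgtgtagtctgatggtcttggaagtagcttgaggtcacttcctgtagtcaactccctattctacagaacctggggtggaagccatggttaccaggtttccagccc
Lpin2: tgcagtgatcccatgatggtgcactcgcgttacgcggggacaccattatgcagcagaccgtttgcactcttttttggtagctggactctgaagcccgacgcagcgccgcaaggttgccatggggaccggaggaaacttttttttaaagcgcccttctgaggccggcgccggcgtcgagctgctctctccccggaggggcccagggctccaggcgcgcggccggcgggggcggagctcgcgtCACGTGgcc

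The letters CACGTG, which read the same on both strands, occurred in 1 of the 10 windows, that of Lpin2 printed above, and in 6.02% of 32851 windows of the same length. TCACNCCAC, a form of the sterol regulatory element, on either strand was in 0 of the 10 and in 1.05% of all. CCAAT on either strand was in 2 of the 10 windows (1 each of Gpam and Lpin2) and in 33.8% of all. These counts describe the letters of short windows and say nothing of binding.

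Between 34131 and 38612 spots passed the filter on an array, correlations between arrays ranged from 0.981 to 0.999, and no probe of the 9 genes was saturated. The labels were checked on Mlxipl, for which the probe's place relative to either deletion was not determined. Its log2 signal was 15.14 to 15.48 in WT littermates and 13.89 to 14.30 in total ChREBP-KO mice, a difference of -1.16 ± 0.073 (SE, limma, adjusted p = 8.05e-13). In the ChREBPβ line it was 14.875 to 15.33 in WT littermates and 14.40 to 14.845 in deficient mice (adjusted p = 0.0152). All 8 hepatocyte markers had a probe that passed the filter. Alb had the same normalized value on every array (18.956, SD 0), so that neither it nor the sum of these markers can show a change in hepatocytes. Of the 8, Cps1 (0.44, adjusted p = 0.0157) and Ttr (0.17, adjusted p = 0.0110) were higher in total ChREBP-KO mice. Of 8 adipocyte markers, Adipoq had no probe that passed the filter and 1 of the other 7, Adrb3, was higher in total ChREBP-KO mice, with a median difference of -0.069 over the 7. The summed log2 signal of these 7 was 9.79 to 12.0 (median 9.95) in WT littermates and 10.5 to 13.4 (median 10.7) in total ChREBP-KO mice. In the ChREBPβ line it was 10.2 to 11.4 (median 10.98) in WT littermates and 10.6 to 13.5 (median 11.72) in deficient mice. The highest sums, 13.4 and 13.5, came from 1 mouse of each deficient group. ChREBPβ-deficient replicates 3, 5, 7 and 8 (12.23, 11.91, 12.55 and 11.53) also lay above all WT littermates of their line, and replicates 1, 2 and 4 did not. In that line Cfd differed by 2.04 (interval -0.15 to 4.23), the highest of all genes by leading probe, and Cidea by 1.33 (interval 0.035 to 2.62). Neither was called (limma, adjusted p = 0.992 and 0.989). The median over the 7 was 0.13, with Lep lowest at -0.13. Other cell types also moved in total ChREBP-KO mice. Of 6 stellate cell markers, Dcn (0.40) and Reln (0.80) were called higher, with a median of 0.38 over the 6 and the lowest at 0.20. Of 5 cholangiocyte markers Epcam was higher (0.97, adjusted p = 0.0101), of 4 red blood cell markers Alas2 (0.34, adjusted p = 0.0183), and of 5 exocrine pancreas markers Cela3b and Ctrb1 were lower (median of the 5 at -0.77). None of 6 Kupffer cell and 6 endothelial markers was called, and none of any of these lists in ChREBPβ-deficient mice. The part of these cells in the results below was not tested.

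In total ChREBP-KO mice, 6 of the 9 genes differed from WT littermates. Gpd1, Gpam, Agpat2, Lpin1 and Lpin3 fell and Lpin2 rose, while Agpat3, Dgat1 and Dgat2 did not pass the test (limma with Benjamini-Hochberg adjustment over 36059 probes, threshold 0.05, a gene being called where at least 1 probe passed). Over all 23968 genes, 17.3% were called higher, 17.1% lower and 33.9% in either direction. On the leading probes the total ChREBP-KO mice did not overlap their WT littermates for 5 of the 9 genes, 1 above and 4 below, where 3.3% of all genes lay above without overlap, 4.45% below and 7.75% in either direction. Of the 20 probes 13 were called, against 29.1% of all probes. The median difference of the 9 leading probes was -0.54, against 0.0078 for all genes. In whole liver, fewer cells that make an RNA and less of it per cell cannot be told apart.

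**Figure D1:**
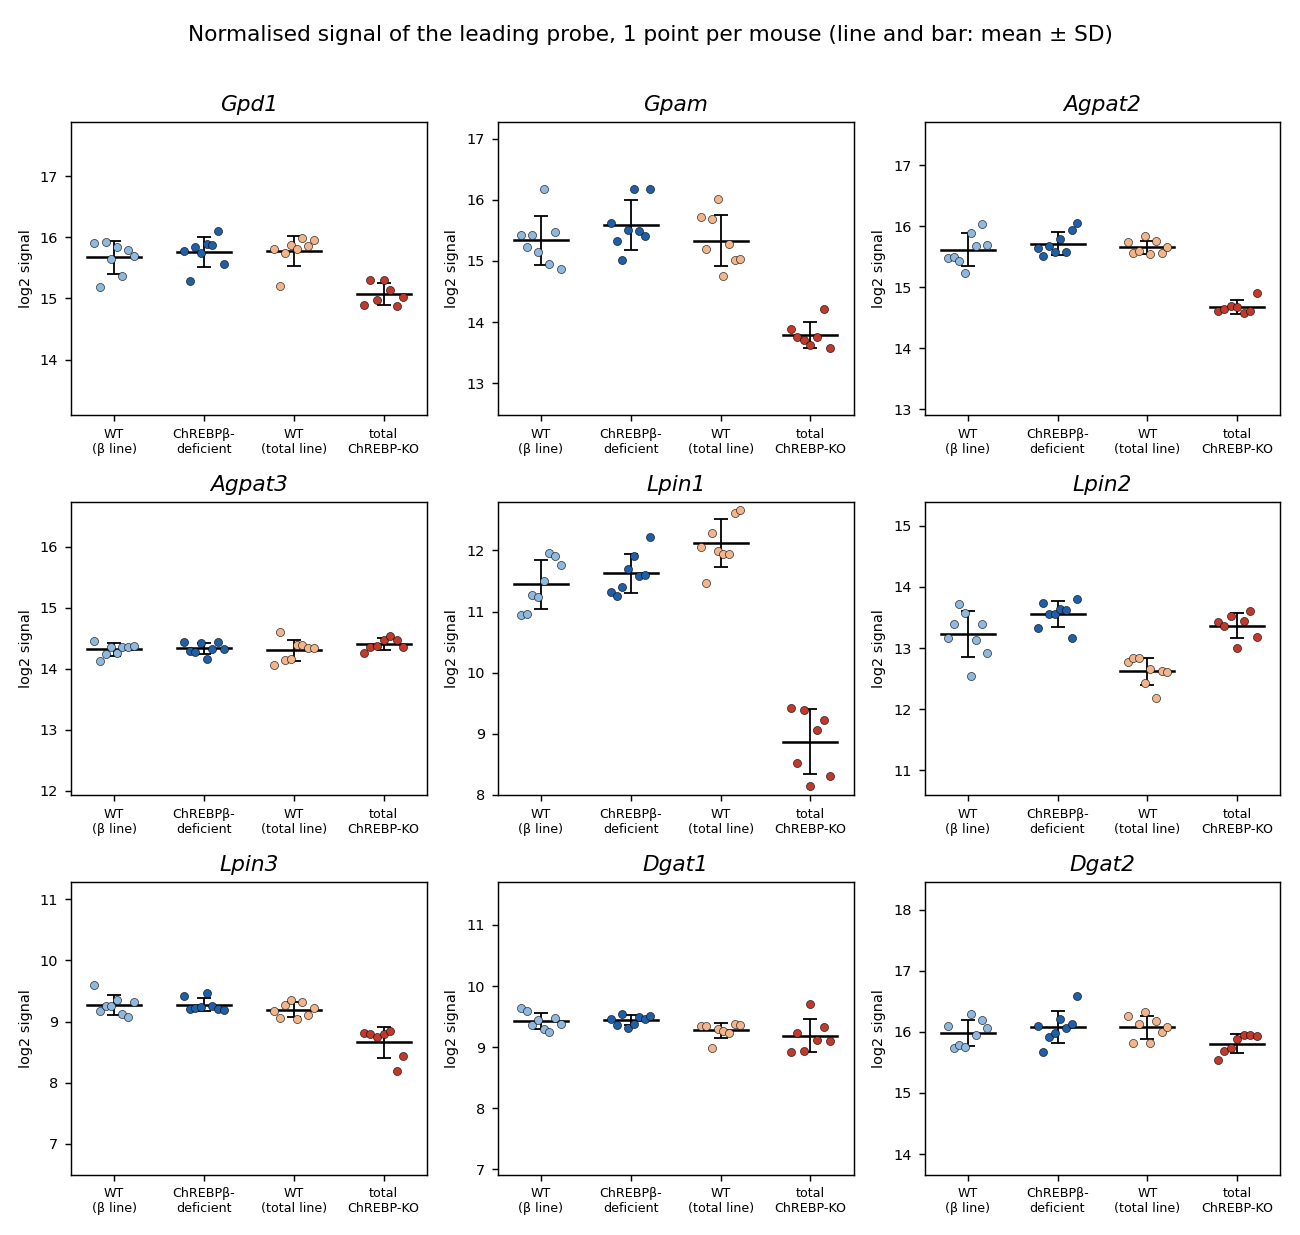
Normalized log2 signal of the leading probe of each gene (vertical axes, each spanning the same number of log2 units) in the 4 genotype groups (horizontal axes), 1 point per mouse, with the mean and SD as line and bar. Total ChREBP-KO mice lie below all other mice for Gpam, Agpat2, Lpin1 and Lpin3, and the 4 groups overlap for Agpat3, Dgat1 and Dgat2.

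Gpd1 supplies the glycerol backbone. Its leading probe read 15.21 to 16.00 (median 15.84) in the 8 WT littermates and 14.88 to 15.31 (median 15.02) in the 7 total ChREBP-KO mice. The groups overlapped only because WT replicate 2 lay at 15.21, below 2 of the knockouts. The difference was -0.71 ± 0.12 (SE), or 1.63-fold lower (adjusted p = 2.83e-05), and -0.52 ± 0.11 on the other probe (adjusted p = 0.000841). Arrays were scanned on 2 days, each with all 4 groups, and within the days the leading probe differed by -0.54 (adjusted p = 0.0645) and -0.89 (adjusted p = 0.000217), so that on the first day alone the difference missed the threshold.

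Gpam, the enzyme of the first acylation, fell further. Its signal was 14.76 to 16.01 (median 15.24) in WT littermates and 13.58 to 14.21 (median 13.75) in total ChREBP-KO mice, with every knockout below every WT mouse. The difference was -1.55 ± 0.18 (SE), or 2.92-fold lower (adjusted p = 1.41e-07). The other probe fell by 1.90 (adjusted p = 2.63e-06). Within the scan days the leading probe differed by -1.91 and -1.17, with adjusted p = 6.23e-05 and 0.00206.

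Of the acyltransferases that make phosphatidic acid, Agpat2 fell and Agpat3 did not pass the test. Agpat2 was 15.54 to 15.83 (median 15.62) in WT littermates and 14.58 to 14.91 (median 14.65) in total ChREBP-KO mice. The groups were apart by more than their own ranges, and the difference was -0.98 ± 0.093 (SE), or 1.97-fold lower (adjusted p = 1.71e-09), with -0.96 on the second probe. Agpat3 was 14.07 to 14.60 in WT littermates and 14.26 to 14.53 in knockouts. Its difference of 0.10 (95% confidence interval -0.032 to 0.23) and that of its other probe, -0.076 (interval -0.19 to 0.037), lay on either side of 0.

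The lipins, which make diacylglycerol from phosphatidic acid, split. Lpin1, whose protein also acts in the nucleus as a coregulator of transcription, had the largest difference of the 9 genes. Its leading probe read 11.47 to 12.655 (median 12.03) in WT littermates and 8.14 to 9.43 (median 9.07) in total ChREBP-KO mice. This was a difference of -3.25 ± 0.20 (SE), 9.54-fold lower (adjusted p = 6.21e-13). The other probes fell by 3.32, 2.07 and 1.42 (the last being the sequence printed above), and on all 4 the groups were apart. The printed probe was dim, at 5.25 to 5.71 in the knockouts. It was well above background in every mouse but passed all spot flags in only 4 of 8 WT littermates and 4 of 7 knockouts. Over the processing alternatives the difference of the printed probe lay between -1.94 and -0.96, and that of the leading probe between -3.42 and -3.09.

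Lpin2 went the other way. Its leading probe read 12.18 to 12.83 (median 12.64) in WT littermates and 13.005 to 13.61 (median 13.42) in total ChREBP-KO mice, so that every knockout lay above every WT mouse. The difference was 0.75 ± 0.13 (SE), or 1.68-fold higher (adjusted p = 5.97e-05). The probe printed above rose by 0.71 (adjusted p = 0.000219), with the highest WT mouse at 10.27 and the lowest knockout at 10.28. The other 3 probes, which the array annotation assigns to other transcripts, differed by 0.17 to 0.40 and missed the threshold (adjusted p = 0.174 to 0.40). On scan day 1 alone the leading probe missed the threshold at 0.62 (adjusted p = 0.0554) and the printed one passed it (adjusted p = 0.0347), and on day 2 the leading probe differed by 0.90 (adjusted p = 0.00154). A sixth Lpin2 probe was well above background on all 31 arrays but was found by the scanning software on 17, and so was left out. Without the filter it differed by 0.70 (adjusted p = 0.000225).

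Lpin3, the third family member, was 9.04 to 9.36 (median 9.20) in WT littermates and 8.19 to 8.85 (median 8.79) in total ChREBP-KO mice, again without overlap. It differed by -0.54 ± 0.085 (SE), or 1.45-fold lower (adjusted p = 1.41e-05). Its other probe was well above background on 2 of 31 arrays and gave no usable value. Without the filter that probe differed by 0.036 (limma, adjusted p = 0.822), so the Lpin3 call rests on the leading probe alone.

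At the final step Dgat1 was not called, and the call of Dgat2 depended on the analysis. Dgat1 was 8.99 to 9.37 (median 9.32) in WT littermates and 8.92 to 9.70 (median 9.12) in total ChREBP-KO mice, a difference of -0.086 (interval -0.26 to 0.084, adjusted p = 0.485). Dgat2 was 15.81 to 16.33 (median 16.11) in WT littermates and 15.53 to 15.95 (median 15.88) in knockouts, a difference of -0.27 (interval -0.48 to -0.049). Its unadjusted limma p of 0.0180 was near the two-sided exact permutation p of 0.0154, which is also unadjusted. After adjustment over all probes the limma test narrowly missed the threshold (adjusted p = 0.0593). Dgat2 passed it in 4 of 15 processing alternatives, with processed signal (adjusted p = 0.0442) or median signal (adjusted p = 0.0319) scaled to the 75th percentile, a separate fit of the groups compared (adjusted p = 0.0377) and the replicate block (adjusted p = 0.0421). It also passed in 4 of the 31 fits that left out 1 mouse (WT replicates 2 and 5 of the total line and ChREBPβ-deficient replicates 2 and 8, adjusted p = 0.0337, 0.0344, 0.0430 and 0.0348), and its differences on the 2 scan days were -0.42 and -0.073.

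**Figure D2:**
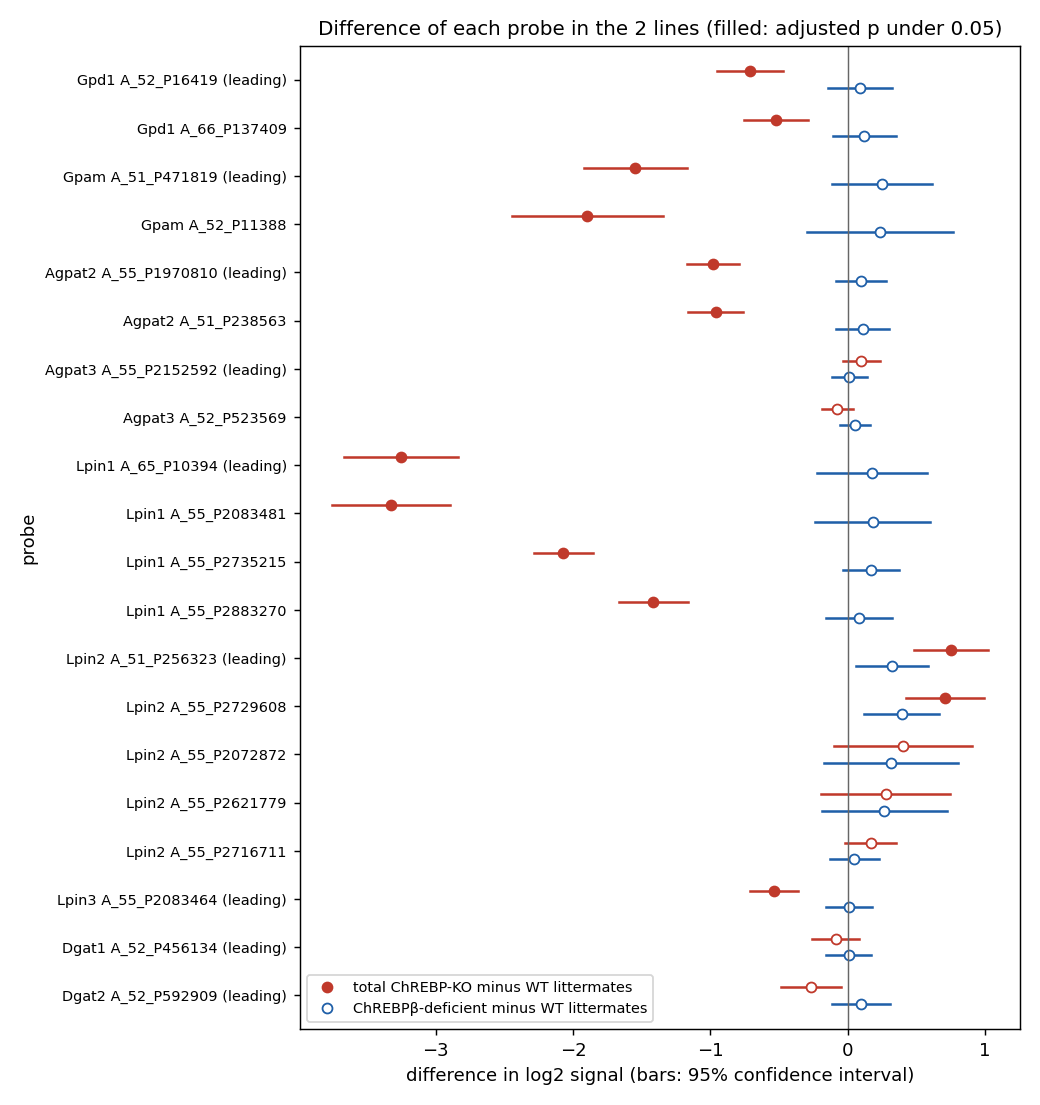
Difference in log2 signal (horizontal axis, with 95% confidence interval) of the 20 probes used (vertical axis), for total ChREBP-KO mice (red) and ChREBPβ-deficient mice (blue) against their own WT littermates, filled where the adjusted p was under 0.05. The red symbols run from -3.32 for an Lpin1 probe to 0.75 for an Lpin2 probe, with 13 of 20 filled, and none of the blue symbols is filled.

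In ChREBPβ-deficient mice none of the 9 genes was called, on a background of 0.00417% of all genes (1 gene, Mlxipl). At an unadjusted p under 0.05 there were 2 of the 20 probes, both of Lpin2, against 4.98% of all probes. The exact Mann-Whitney test and the other alternatives also called 0 of the 9. Lpin2 read 12.54 to 13.72 (median 13.28) in WT littermates and 13.16 to 13.81 (median 13.59) in ChREBPβ-deficient mice. The groups overlapped, and the difference was 0.32 (interval 0.062 to 0.58), with an unadjusted p of 0.0170 and an adjusted p of 0.989 in limma. The two-sided exact permutation p, which is unadjusted, was 0.0480, the lowest of 9 such tests in this line. The second Lpin2 probe differed by 0.39 (interval 0.12 to 0.67, adjusted p = 0.909).

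For the other genes of the pathway the intervals in ChREBPβ-deficient mice bound what may have gone undetected. Gpam, at 14.87 to 16.17 (median 15.32) in WT littermates and 15.02 to 16.17 (median 15.49) in deficient mice, differed by 0.25 (interval -0.11 to 0.62). Lpin1, at 10.95 to 11.965 (median 11.39) and 11.26 to 12.225 (median 11.59), differed by 0.18 (interval -0.22 to 0.58). These lower bounds lie far from the differences of -1.55 and -3.25 measured in total ChREBP-KO mice. Gpd1 differed by 0.091 (interval -0.14 to 0.32), Agpat2 by 0.099 (interval -0.084 to 0.28) and Dgat2 by 0.096 (interval -0.11 to 0.31). Agpat3 (interval -0.12 to 0.14), Lpin3 (interval -0.16 to 0.17) and Dgat1 (interval -0.16 to 0.17) had the narrowest bounds.

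All 20 probes had a difference above 0 in ChREBPβ-deficient mice, as had 49.6% of all probes. The probes share genes and the same 16 mice, so they are no independent counts. On scan day 1 alone the leading probes of Gpd1, Gpam, Lpin3, Dgat1 and Dgat2 were below 0, with Gpam at -0.21 on day 1 and 0.59 on day 2.

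The effects of the 2 deficiencies were then compared in the same model, each against its own WT littermates. The effect differed for 5 of the 9 genes, all more negative in total ChREBP-KO mice, where 9.6% of all genes were called in that direction and 18.3% in either. Lpin1 had a difference between effects of -3.43 (adjusted p = 1.09e-09), Gpam of -1.80 (adjusted p = 8.99e-06) and Agpat2 of -1.08 (adjusted p = 6e-07). Gpd1 (-0.80, adjusted p = 0.00091) and Lpin3 (-0.54, adjusted p = 0.00169) followed. For Lpin2, called in one line only, the effects differed by 0.43 (interval 0.052 to 0.80, adjusted p = 0.119), and without WT replicate 5 of the ChREBPβ line by 0.53 (adjusted p = 0.0242), so that a difference between the lines rests on whether that mouse is kept. For Dgat2 the value was -0.36 (adjusted p = 0.0989), and -0.42 without ChREBPβ-deficient replicate 2 (adjusted p = 0.0399).

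The WT littermates of the 2 lines were not alike. Lpin1 was higher in those of the total line, by 0.68 ± 0.20 (SE) on the leading probe (adjusted p = 0.0167) and by 0.65 to 0.95 over all 4 probes, each of them called. The call of the leading probe was lost within each scan day (0.71 and 0.64, adjusted p = 0.114 and 0.198). It was also lost when slides entered the model as fixed blocks (0.72, adjusted p = 0.0810). In these settings the difference stayed near 0.68, with larger standard errors (0.26, 0.26 and 0.24). The call of A_55_P2083481 was lost in the same settings, in the exact Mann-Whitney test and without WT replicate 2 of the ChREBPβ line (adjusted p = 0.0514). The other 2 probes, A_55_P2735215 and A_55_P2883270, passed in all alternatives run. Apart from leaving out arrays these were 13, against 14 for the leading probe and A_55_P2083481. They are the dimmer probes, with means over all arrays of 6.88 and 6.33, against 11.08 for the leading probe and 10.35 for A_55_P2083481. A_55_P2883270 passed all spot flags in only 4 of 8 WT littermates of the total line and 6 of 8 of the ChREBPβ line. Lpin2 was lower by 0.61 ± 0.13 (SE) on the leading probe (adjusted p = 0.00123) and by 0.45 on the printed one (adjusted p = 0.0191, and 0.0515 without WT replicate 4 of the ChREBPβ line), but its other 3 probes lay above 0, at 0.25, 0.35 and 0.17, and were not called. Of the 2 Agpat3 probes, 1 was lower by 0.17 (adjusted p = 0.0260), while the leading one differed by -0.016 (adjusted p = 0.899). That makes 3 of the 9 genes, 1 higher and 2 lower, on a background of 9.93% of all genes higher, 11.4% lower and 21.2% in either direction. The count fell to 1, Lpin1, with the slide as a fixed block and on scan day 1 alone. In both settings the Lpin1 call rested on its 2 dimmer probes. The Agpat3 call was lost in 5 of 14 alternatives. Besides the slide as a fixed block and scan day 1, these were scan day 2 alone (adjusted p = 0.388), a separate fit of the groups compared (adjusted p = 0.0510) and the exact Mann-Whitney test (adjusted p = 0.0703). It was also lost without WT replicate 7 of the ChREBPβ line or WT replicate 3 or 4 of the total line (adjusted p = 0.0535, 0.0588 and 0.0608). Markers of other cells differed between the same WT mice. In those of the total line 3 of 4 red blood cell markers were higher (median 0.98) and 4 of 5 exocrine pancreas markers (median 1.04), 3 of 7 adipocyte markers were lower (median -0.49) and 1 of 6 endothelial markers was higher, and their part in these differences was not tested. Colony, litters and time are not given per mouse, so they cannot be told apart from the line here. The order of group means for Lpin2, from low to high, was the WT littermates of the total line (12.62), those of the ChREBPβ line (13.23), total ChREBP-KO mice (13.37) and ChREBPβ-deficient mice (13.55). The last 3 overlapped one another, and no total ChREBP-KO mouse exceeded the highest WT littermate of the ChREBPβ line, at 13.72. For Lpin1 the order was total ChREBP-KO (8.87), the WT littermates of the ChREBPβ line (11.4), ChREBPβ-deficient (11.6) and the WT littermates of the total line (12.1), with the lowest group apart from the rest.

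**Figure D3:**
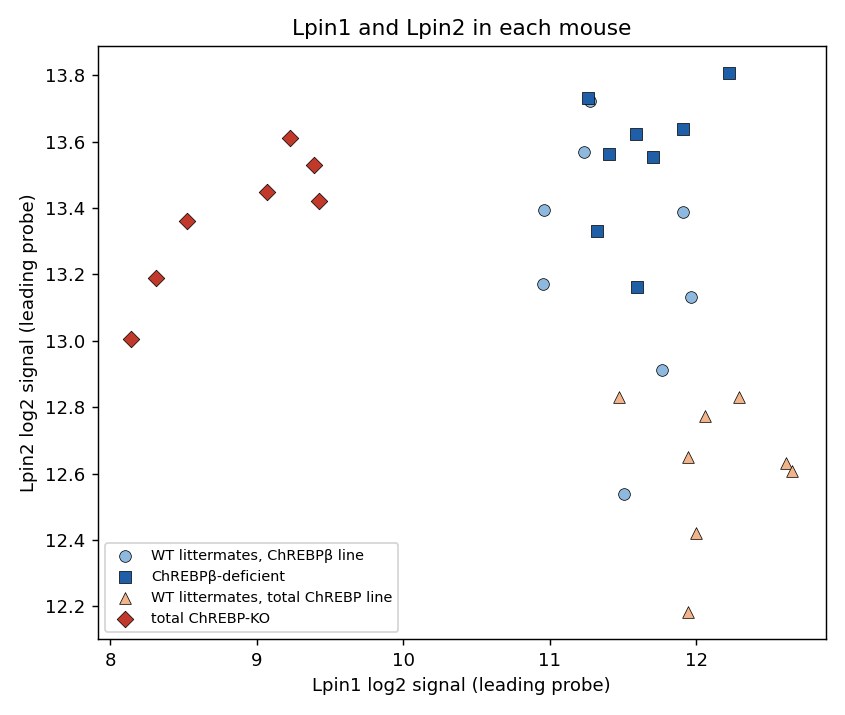
Log2 signal of the leading probes of Lpin1 (horizontal axis) and Lpin2 (vertical axis), 1 symbol per mouse, with colour and shape giving the group. The 7 total ChREBP-KO mice sit at 8.14 to 9.43 on Lpin1, left of all other mice, and the 8 WT littermates of their line sit at 12.83 or below on Lpin2.

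Within the total ChREBP-KO mice, those with less Lpin1 tended to have less Lpin2 on the leading probes (Pearson r = 0.88, exact permutation p = 0.00952, adjusted p = 0.0381 over the 4 groups, Spearman rho = 0.75, exact permutation p = 0.0663, adjusted p = 0.265, n = 7). Without the 2 mice farthest from the median of Lpin1, r was 0.58, so the relation rests on those mice. In the other groups r was -0.30, 0.39 and -0.020 (n = 8 each, exact permutation p = 0.470, 0.326 and 0.976). The relation was not tested on the other Lpin2 probes. Knockout replicate 8, low on Lpin1 at 8.31, was the highest knockout on each of those probes, with 11.17 on the printed one. The relation on the leading probes was chosen after its values were seen. Its p-values, also the adjusted ones, do not account for that choice and cannot serve as support.

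With the group means removed, the members were compared over the 31 arrays as a description, since the mice share slides and depth. Agpat2 and Dgat2 varied together most (r = 0.74), then Gpam and Dgat2 (r = 0.64) and Gpd1 and Lpin3 (r = 0.43). The most negative pairs were Agpat2 and Lpin2 (r = -0.45), Lpin1 and Dgat1 (r = -0.45), Gpam and Agpat3 (r = -0.41) and Gpd1 and Lpin2 (r = -0.41). Among all genes, the pattern most like Gpam's was that of Acly, ATP citrate lyase (r = 0.89), followed by Fasn, fatty acid synthase (r = 0.82), both enzymes of the pathway that makes fatty acids. Mgll, monoglyceride lipase, was most like Gpd1 (r = 0.88), Tjp3 most like Agpat2 (r = 0.84), Gxylt1 most like Lpin2 (r = 0.79), Pomk most like Lpin3 (r = 0.81) and Ereg most like Lpin1 (r = 0.70). Probes of 1 gene tracked each other at r = 0.82 to 0.90 for Gpd1, Gpam and Agpat2. For Lpin2 the leading probe had r = 0.51 with the printed one and -0.042 with A_55_P2072872.

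The neighbours of the 9 genes were counted by their leading probes in total ChREBP-KO mice, where 14.4% of all genes were higher and 14.8% lower. Of 20 genes for other acyltransferases and the supply of glycerol-3-phosphate, 10 rose and 4 fell, with a median difference of 0.29. Glycerol kinase (Gyk in the array's naming, now Gk), which makes glycerol-3-phosphate from free glycerol, rose by 1.27 ± 0.11 (SE) (adjusted p = 4.45e-10), from 10.44 to 11.01 in WT littermates to 11.8 to 12.3 in knockouts. Agpat9, now called Gpat3, another glycerol-3-phosphate acyltransferase, rose by 1.08 (adjusted p = 0.00281), and Mogat1, a monoacylglycerol acyltransferase, by 0.82 (adjusted p = 0.00744). Gpd2, the mitochondrial dehydrogenase that consumes glycerol-3-phosphate, fell by 2.11 ± 0.18 (SE) (adjusted p = 2.69e-10), from 10.29 to 11.61 down to 8.67 to 9.35. The fatty acyl-CoA synthetases moved in both directions, with Acsl5 at -0.88, Acsl3 at -0.52, Acsl1 at 0.63 and Acsl4 at 0.31. Aqp9, the channel through which hepatocytes take up glycerol, rose by 0.51 (adjusted p = 0.000214). Smaller rises were seen for Agpat1 (0.23), Agpat4 (0.31), Agpat6 (0.27) and Gpd1l (0.32), relatives of the genes above, with adjusted p from 0.00369 to 0.0398.

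Of 23 genes measured in the branch from phosphatidic acid to phospholipids, 5 rose and 5 fell, with a median of 0.056. Chpt1, a choline phosphotransferase that uses diacylglycerol, rose by 0.77 (adjusted p = 2.02e-07) and Lpcat3, a lysophosphatidylcholine acyltransferase, fell by 0.47 (adjusted p = 0.000255). Of 20 genes for the lipid droplet, 2 rose and 6 fell, with a median of -0.13. Pnpla3, a droplet-bound hydrolase, fell from 6.77 to 10.4 in WT littermates to 4.37 to 5.25 in knockouts, where it was well above background on 4 of 7 arrays. The coat proteins Plin2 and Plin5 fell by 0.60 (adjusted p = 0.000215) and 0.59 (adjusted p = 0.000736), and Fitm1, which helps droplets form, rose by 1.16 (adjusted p = 0.000139). Of 9 genes listed under lipin regulation, Srebf1 fell by 0.91 (adjusted p = 5.38e-06), Mlxipl fell as above and Ppara rose by 0.69 (adjusted p = 0.000809). Whether they act on the lipins in these livers was not tested. Among the genes named as rising in these lists, the knockout means of Mogat1, Agpat6, Gpd1l, Fitm1 and Ppara did not exceed those of the WT littermates of the ChREBPβ line. For Fitm1 these means were 9.33 and 10.03. Knockout means of the other named rising genes did exceed them. In ChREBPβ-deficient mice Mlxipl was the only gene called in these 4 lists.

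**Figure D4:**
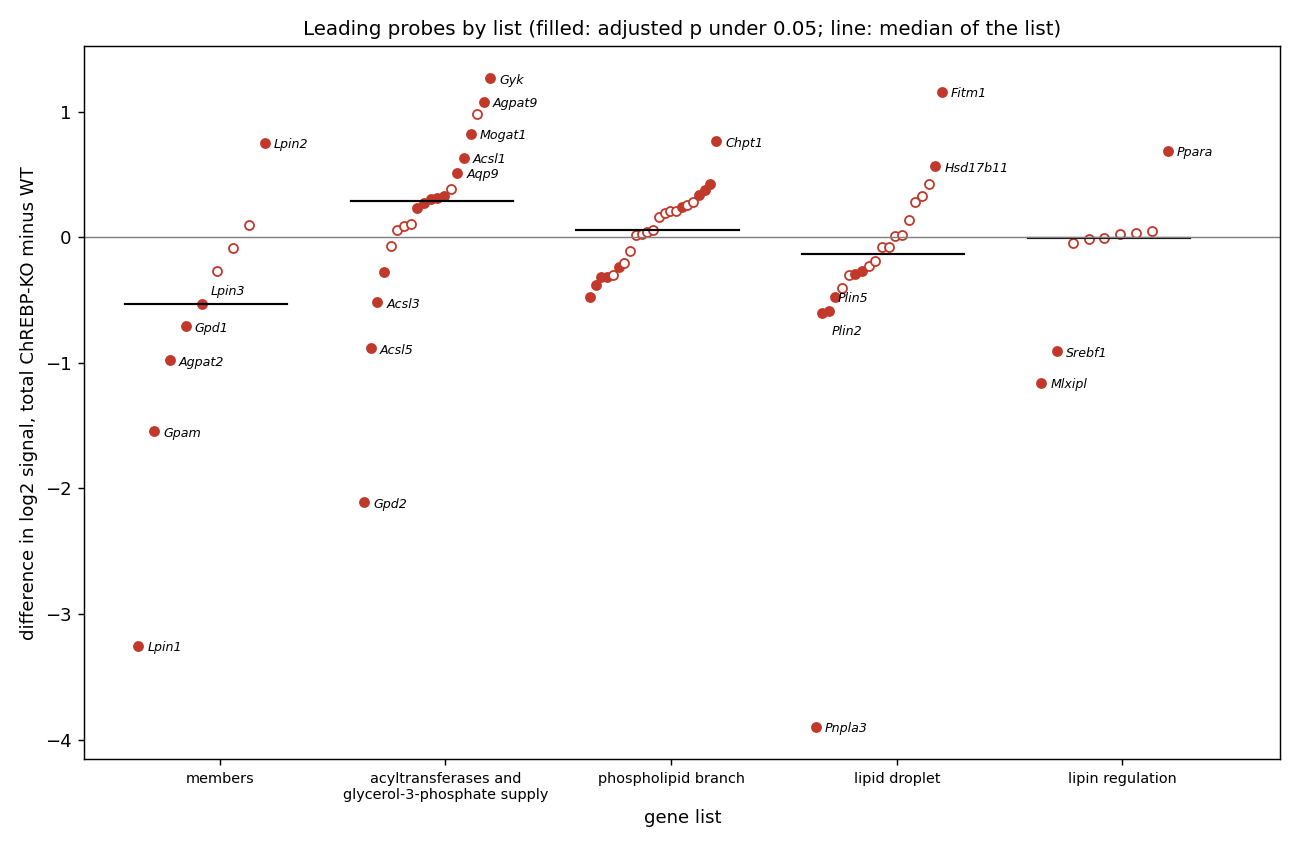
Difference in log2 signal between total ChREBP-KO mice and WT littermates (vertical axis) for the leading probe of each gene in 5 lists (horizontal axis), filled where the adjusted p was under 0.05 and with the median of each list as a line. Gpd2 at -2.11 lies among the lowest points and Gyk at 1.27 is the highest, and the median of the 9 genes (-0.54) is the lowest of the 5 lists.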

How the data were processed

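Liver RNA of 31 mice was hybridized to 1-color Agilent arrays, 1 array per mouse. The deposited scanner files hold spot intensity and 0 or 1 quality flags, which the authors extracted with Feature Extraction 10.10.1.1 without normalization between arrays. A deposited table of log2 values by the authors was used as an alternative; its log base was taken from a comparison with the scanner values. Replicate 3 of the total ChREBP-KO group was not analysed here.

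Median intensities were log2 transformed and quantile normalized, spots that passed the flags on at least 26 arrays or on 6 of 1 group were kept, and spots of 1 probe were reduced to their median. One limma model (limma 3.58.1, R 4.3.3) covered the 4 groups, with Benjamini-Hochberg adjustment over 36059 probes and a threshold of 0.05. For single genes a two-sided exact permutation test was added, and its p-values are given unadjusted. P-values measure the spread between these mice. All 9 genes were named, and of other genes those called in the fixed lists, the largest changes first, and up to 3 genes of most alike pattern per member. The members, lists and tests were chosen with earlier results of these data known. Alternatives covered background, scaling, filter, slide, scan day, replicate block, test and leaving out each array. The number of arrays limits the precision. The code was tested on simulated data.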

Additional observations from a re-analysis of the deposited data

Results flagged for a closer look

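In 7 of 80 sets of values (1 probe in 1 group), 1 mouse stood apart from the rest of its group, where chance alone gives about 1 in 20. Gpd1 read 15.21 in replicate 2 of the WT littermates of the total line (nearest mouse 15.738), and its other probe 7.3482 in ChREBPβ-deficient replicate 2 (nearest 7.7739). Gpam read 16.173 in replicate 5 of the WT littermates of the ChREBPβ line (nearest 15.481). Total ChREBP-KO replicate 8 stood apart on 3 probes, with Agpat2 at 14.911 (nearest 14.692) and Lpin2 probes A_55_P2072872 and A_55_P2716711 at 9.386 (nearest 8.0362) and 6.2844 (nearest 5.8075). Dgat1 read 8.987 in replicate 3 of the WT littermates of the total line (nearest 9.2225).

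For 11 probes the effect of total ChREBP deficiency differed from that of ChREBPβ deficiency (limma, adjusted p). The difference was -0.80 (adjusted p = 0.00091) and -0.64 (adjusted p = 0.00553) for the Gpd1 probes, -1.80 (adjusted p = 8.99e-06) and -2.13 (adjusted p = 0.000157) for those of Gpam, and -1.08 (adjusted p = 6e-07) and -1.07 (adjusted p = 1.35e-06) for those of Agpat2. The Lpin1 probes differed by -3.43, -3.50, -2.24 and -1.50, with the highest adjusted p at 3.46e-07, and Lpin3 by -0.54 (adjusted p = 0.00169).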

How the results depend on the processing

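The count of genes called was 5 to 7 in total ChREBP-KO mice, 0 in ChREBPβ-deficient mice and 4 to 5 for the difference between effects under the other alternatives, and 6 to 7, 0 and 5 to 6 when each array was left out. Between the WT littermates of the lines it was 1 to 3 and 2 to 3, with 1 under the slide as a fixed block and on scan day 1 alone. The alternatives were run for leading and called probes, 16 in total ChREBP-KO mice and 15 for the difference between effects, and none of these reversed. Both Gpd1 probes and the leading Lpin2 probe, but not the other called Lpin2 probe, missed the threshold on scan day 1 alone, and the Gpd1 difference between effects did so there (-0.52) and with the slide as a fixed block (-0.72).

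Small differences changed sign. In ChREBPβ-deficient mice, scan day 1 alone gave Gpd1 -0.023, Gpam -0.21, Lpin3 -0.039, Dgat1 -0.019 and Dgat2 -0.038, scan day 2 alone gave Agpat3 -0.058, and the slide as a fixed block gave Agpat3 -0.063 and Dgat1 -0.058. Agpat3 was -0.060 and -0.053 with processed and median signal scaled to the 75th percentile and -0.021 in the deposited table. Lpin3 was -0.0021 with processed signal and -0.0020 with normexp. With single arrays left out, Agpat3 ranged from -0.016 to 0.038, Lpin3 from -0.022 to 0.054 and Dgat1 from -0.017 to 0.039. Between the WT littermates, Gpam was 0.013 with processed signal, 0.0052 with normexp and 0.16 on scan day 1, Agpat2 -0.076 with the slide as a fixed block and -0.096 on scan day 2, and Agpat3 0.0042 in the deposited table. Lpin3 was 0.00026 and Dgat2 -0.019 with the slide as a fixed block, and Dgat2 -0.059 on scan day 2. With single arrays left out, Gpam ranged from -0.099 to 0.12, Agpat2 from -0.019 to 0.097 and Agpat3 from -0.058 to 0.018. The cause was not tested.

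The labels do not say that same-numbered mice belong together. Their correlations were -0.156 to 0.533 in the ChREBPβ line (median 0.178, against -0.067 for other pairs, best with their own number in 4 of 8), a hint from the data only, and -0.215 to 0.241 in the total line (median -0.020, against -0.011, 1 of 7). With the number as a replicate block, 7 of the 9 genes were called in total ChREBP-KO mice, Dgat2 at -0.26 being added, 0 in ChREBPβ-deficient mice and 5 for the difference between effects.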
